A study of Mus musculus with 17 samples.

Results

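The replication-type and linker histone genes of the mouse were followed in hippocampal polyadenylated RNA. Members were the protein-coding genes of the count table whose names begin with H1f, H2ac, H2bc, H3c or H4c and a number, or with the older style Hist1h to Hist4h. That pattern found 68 of the 55385 genes of the table: 10 linker (H1) genes, 17 H2A, 17 H2B, 12 H3 and 12 H4 genes. On GRCm38, 54 of them lie on chromosome 13, 10 on chromosome 3 and 4 elsewhere.

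Mice of 3 genotypes were compared, all aged 17.1 to 18.0 weeks and with no treatment given in the labels. The 6 WT mice were C57BL/6J. The 6 Dp16 mice carry an extra copy of a segment of mouse chromosome 16 orthologous to part of human chromosome 21, and serve as a model of Down syndrome. The 5 Dp16_2xIFNRs mice also carry it, but have the interferon receptor genes inside it back at normal dosage. The duplication is present in every cell of these animals, and no histone gene of the pattern lies on chromosome 16. Females numbered 9 and males 8, and every library came from the hippocampus of 1 mouse.

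Core histones H2A, H2B, H3 and H4 form the protein spool of the nucleosome, and H1 binds the DNA that enters and leaves it. Most of these genes stand in clusters without introns, and are transcribed in S phase to supply newly copied DNA. Their messenger RNA classically ends a few bases after a conserved stem-loop, which the stem-loop binding protein Slbp holds, and carries no poly(A) tail. Some members escape that scheme: H1f0 and H1f10 are replacement linker histones made outside S phase with ordinary polyadenylated messages, and several clustered genes are known to make a longer, polyadenylated form in cells that have stopped dividing. Because the libraries were made from polyadenylated RNA, the values below are read as that form and not as the total of histone message. How much message without a tail was carried over was not measured.

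The stem-loop was looked for in the annotated transcripts of GENCODE release 21 (GRCm38), which held all 68 members. The search took 16 bases of the transcript strand that begin with GG, have TT as their bases 7 and 8, end in CC, and whose first 6 bases are complementary to the last 6. It was found in 40 of the 68 members and in 0.408% of 21833 other protein-coding genes. The core was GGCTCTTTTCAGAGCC in 23 members, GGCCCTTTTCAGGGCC in 6 and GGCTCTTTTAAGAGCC in 6. The sites of 6 members whose RNA was measurable are shown as DNA letters, with the stem-loop in capitals and 5 bases on either side. They show the stem-loop that lies within these 6 annotated transcripts and in which letters it differs, and not where a transcript ends.
H2ac6: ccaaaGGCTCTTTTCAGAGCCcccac
H1f4: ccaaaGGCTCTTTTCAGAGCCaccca
H1f2: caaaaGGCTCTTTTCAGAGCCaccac
H4c8: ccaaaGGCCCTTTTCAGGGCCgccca
H4c14: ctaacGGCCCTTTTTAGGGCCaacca
H4c11: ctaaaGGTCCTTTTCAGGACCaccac

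In H2ac6, H1f4 and H1f2 the core was identical, whereas the H4 genes shown had other pairs in the stem. H4c14 also differed in a letter of the loop. The annotated transcript went on well past the stem-loop in the H2A gene, the linker genes and an H2B gene: 2010 bases in H2ac6, 1153 bases in H1f4, 840 bases in H1f2 and 1861 bases in H2bc6. In H4c8 it ended 46 bases after the stem-loop, and in the H2A genes H2ac19 and H2ac7 35 and 42 bases after it. In the other tested H4 genes with a stem-loop it went on for longer: 1257 bases in H4c14, 454 in H4c3, 385 in H4c11 and 330 in H4c9. No stem-loop of that pattern was in the annotated transcripts of H1f0, H1f10, H2bc4, H2bc21 and H4c12, and for the latter 3 this says only that these letters are not in the annotated sequence.

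The 250 bases before the annotated RefSeq start (GRCm38.p6) of H2ac6, H1f4 and H1f2 follow, because these 3 genes were called higher together in Dp16_2xIFNRs. H2ac6 is at chr13:23683960-23684209, H1f4 at chr13:23622559-23622808 (both on the minus strand) and H1f2 at chr13:23738557-23738806 (plus strand). Capitals mark matches, on either strand, to TATAAA (the TATA box), CCAAT (the CCAAT box) and AAACACA (a box described in H1 promoters).
H2ac6: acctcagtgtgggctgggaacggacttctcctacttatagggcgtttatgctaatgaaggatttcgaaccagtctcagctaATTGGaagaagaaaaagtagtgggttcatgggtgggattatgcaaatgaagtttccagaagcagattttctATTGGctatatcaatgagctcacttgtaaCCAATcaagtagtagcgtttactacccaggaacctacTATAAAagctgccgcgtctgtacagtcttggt
H1f4: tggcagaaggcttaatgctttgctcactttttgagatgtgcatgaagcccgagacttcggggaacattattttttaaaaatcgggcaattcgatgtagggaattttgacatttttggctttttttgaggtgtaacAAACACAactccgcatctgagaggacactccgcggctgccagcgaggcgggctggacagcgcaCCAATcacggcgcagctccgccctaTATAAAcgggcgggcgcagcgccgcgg
H1f2: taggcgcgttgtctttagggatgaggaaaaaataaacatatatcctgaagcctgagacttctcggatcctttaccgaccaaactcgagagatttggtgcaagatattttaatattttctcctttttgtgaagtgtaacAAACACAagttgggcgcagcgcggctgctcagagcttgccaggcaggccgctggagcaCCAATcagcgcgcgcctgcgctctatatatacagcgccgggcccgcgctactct

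RefSeq promoters were matched for 55 members, 17 of them tested below, in windows from 250 bases before to 50 bases after the start. On either strand and anywhere in the window, TATAAA stood in 9 of the 17, against 13.6% of all 32851 promoters, and CCAAT in 11 of the 17, against 37.4%. A TATAAA began 26 to 32 bases before the start in H1f3, H1f4, H2ac6 and H3c4. In the other tested genes that had a TATAAA, it lay between 137 bases before the start and 30 bases after it. AAACACA stood in 3 of the 17, the linker genes H1f2, H1f3 and H1f4, against 7.18% of all promoters. In H1f4 it began 115 bases and in H1f2 112 bases before the start, and each of these genes had a CCAAT nearer to it. H2ac6 had 3 CCAAT matches and a TATAAA 32 bases before the start. A core of interferon-stimulated response elements (GAAA, any 2 bases, GAAA) was in 1 of the 17 (H2bc6), against 3.44% of all promoters. None of the 4 patterns was in the windows of H1f0 and H1f10. A match is a description of letters and shows no binding.

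Depth was alike in the groups, at 30.4 to 33.1 M (M, mega) counts per library. Levels are given as CPM, the counts of a gene for each M in its library after TMM scaling, and as RPKM, which also divide by gene length, where genes are compared. Of the 68 members, 20 had enough counts to be tested: 5 H1, 3 H2A, 4 H2B, 2 H3 and 6 H4 genes. The 48 others held 0.856% of all member counts, none of them passed 16 counts in any library, and 4 had none. Markers of hippocampal neurons were present in every library (2675 to 3651 CPM summed over 9 genes). Choroid plexus markers were near-absent in 1 library of each genotype (WT replicate 6, Dp16 replicate 6 and Dp16_2xIFNRs replicate 5, at 233, 282 and 353 CPM summed over 16 genes) and at 3545 to 9038 CPM in the others, and WT replicate 4 held 341 CPM of 3 thalamus markers against at most 110.2 elsewhere. Samples with a higher or lower level of a gene may hold more cells that make it or more RNA per cell, and bulk RNA cannot tell these apart.

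The polyadenylated histone pool of the hippocampus was led by the replacement linker histones. H1f0 had a mean of 59.7 RPKM over the 17 libraries and H1f10 39.1 RPKM, and together they gave 62.1% of all member counts. H2bc4 followed at 26.7 RPKM and H1f2, the most abundant of the clustered linker genes, at 21.4 RPKM. All other members stood below 5 RPKM, among them H2bc21 at 4.69, H4c8 at 3.76, H4c12 at 3.56, H3c15 at 2.26, H1f4 at 2.03, H2bc6 at 1.99, H2ac6 at 1.21 and H4c14 at 0.777 RPKM. A mean of at least 1 CPM was reached by 14 members. H1f4 and H2ac6 were low, at 3.93 and 3.01 CPM. The transcripts of 12 of the 15 tested members with a stem-loop ran more than 60 bases past it, and those of 17 of the 25 untested ones ended within 60 bases of it.

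**Figure D1:**
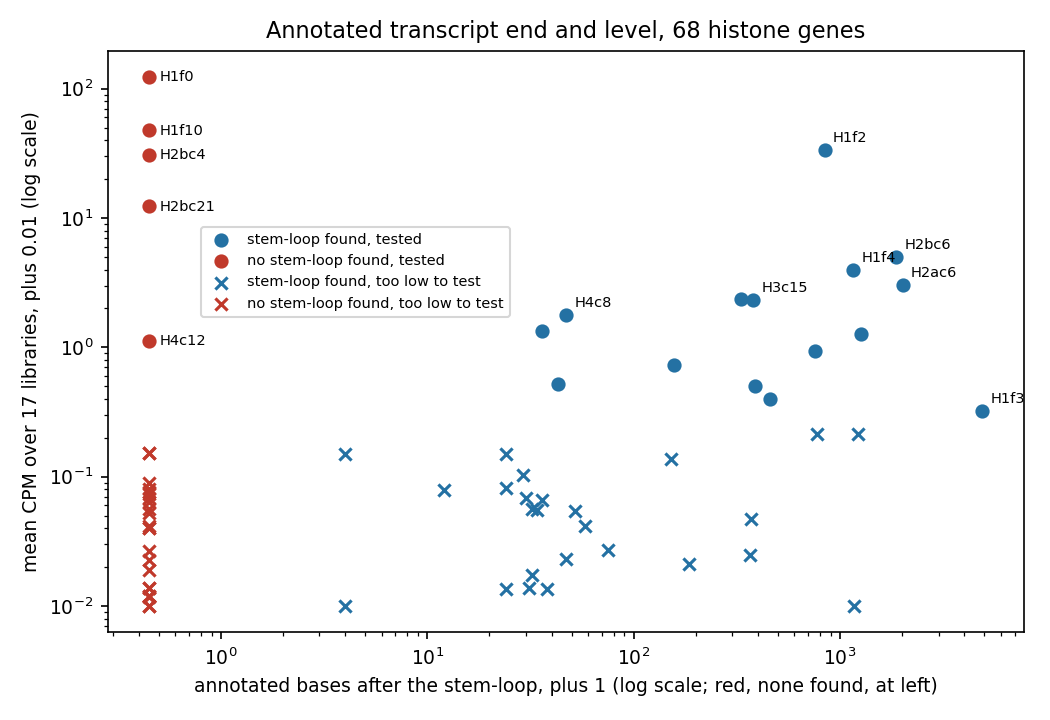
Mean CPM plus 0.01 (log axis) of all 68 histone genes against the annotated bases after the stem-loop plus 1 (log axis); dots are tested genes, crosses genes too low to test, and red marks at the left are genes with no stem-loop found. H1f0, H1f10, H2bc4 and H2bc21 lead among those without it, and H1f2, H1f4, H2bc6 and H2ac6 end 840 to 2010 bases after it.

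H2ac6 was higher than in WT in both duplicated genotypes, by 1.79 times in Dp16, and the clustered linker genes H1f2 and H1f4 in Dp16_2xIFNRs. The replacement linker histones H1f0 and H1f10 had log2 fold changes below 0 and were not called. In Dp16 against WT, 1 of the 20 tested members was called at an adjusted p under 0.05 in edgeR, H2ac6. Of all 18983 tested genes, 0.458% were called higher and 0.537% in either direction. At an unadjusted p under 0.05, 5 of 20 members were higher (H2ac6, H1f2, H1f4, H4c8 and H4c3) and 0 lower, beside 5.61% of all tested genes higher and 3.97% lower. The log2 fold change was above 0 in 16 of 20 members (48.1% of all tested genes), with a median of 0.30, against a median of -0.01 over all tested genes. In Dp16_2xIFNRs against WT, 3 members were called, H2ac6, H1f2 and H1f4, all higher, where 0.637% of all tested genes were called higher and 0.98% in either direction. There 12 of 20 members were higher and 1 (H1f10) lower at an unadjusted p under 0.05, beside 8.44% and 8.6% of all tested genes. The log2 fold change was above 0 in 18 of 20 (51.1% of all tested genes), and the median was 0.59. That median was 0.39 over the 14 members of at least 1 CPM, 1.04 over the 6 below it, and 0.35 over all 20 with the meninges marker level as a covariate. The filter keeps scarce genes through the group where they are high, as with H1f3 (3 to 10 counts per library in WT, 8 to 24 in Dp16_2xIFNRs), so these counts and medians describe the genes that passed and support no statement on the family. Both comparisons use the same 6 WT mice, so their values are set side by side and not counted as separate evidence.

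**Figure D2:**
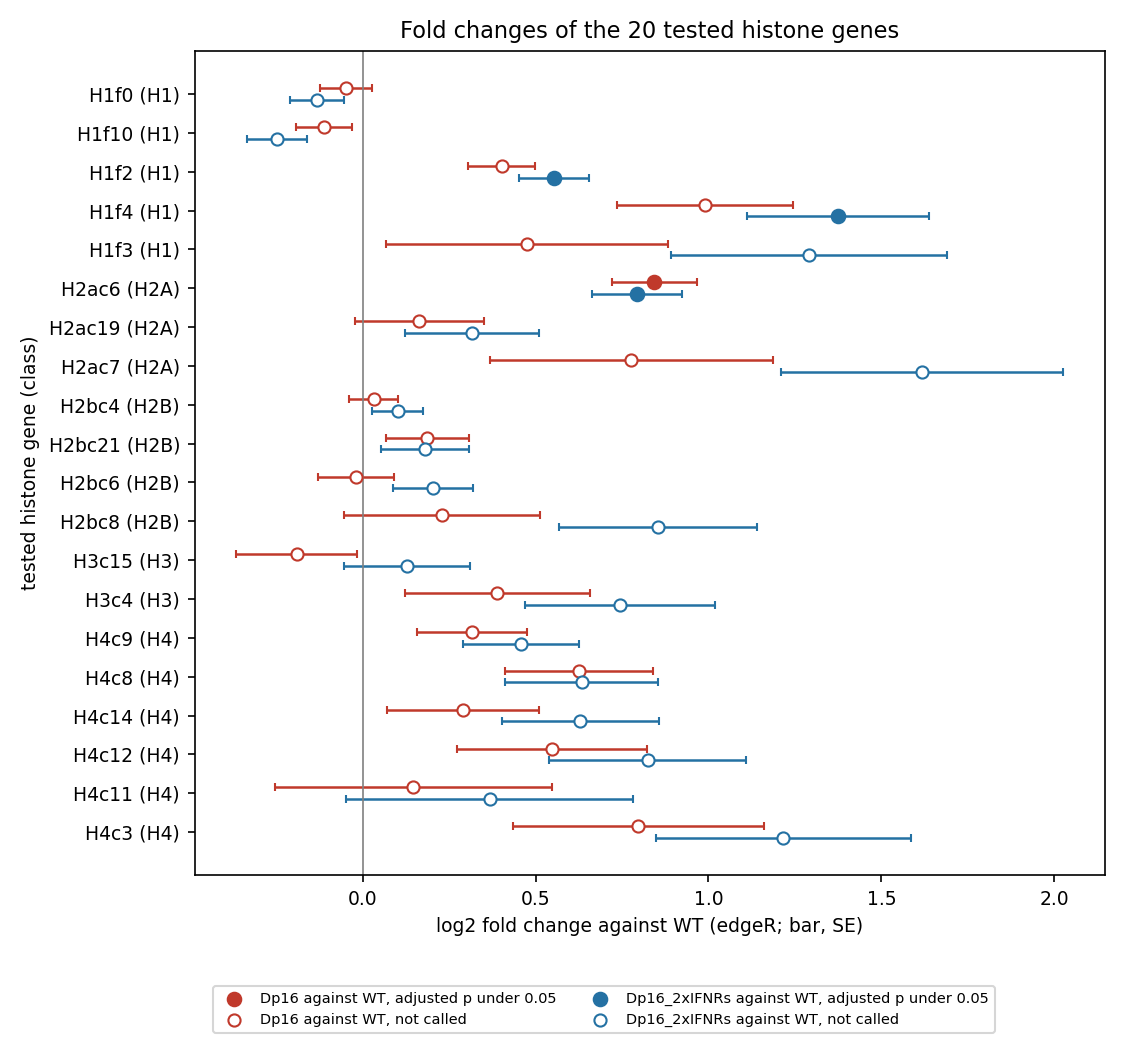
Log2 fold changes against WT (x axis; bars, SE) of the 20 tested histone genes grouped by class, for Dp16 (red) and Dp16_2xIFNRs (blue); filled points have an edgeR adjusted p under 0.05. H2ac6 is filled in both colours, H1f2 and H1f4 in blue only, and H1f0 and H1f10 lie below 0.

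Linker histones. H1f4, which codes for the linker histone H1.4, stood between 1.38 and 3.13 CPM in WT (median 2.11), between 2.08 and 5.69 CPM in Dp16 (median 4.65), and at 4.53, 5.64, 3.46, 6.35 and 7.86 CPM in the 5 Dp16_2xIFNRs mice. All Dp16_2xIFNRs libraries and 5 of 6 Dp16 libraries were above the highest WT library, and Dp16 replicate 1 lay among the WT values. The log2 fold change was 1.38 ± 0.26 (SE) in Dp16_2xIFNRs (edgeR adjusted p = 0.0110), and 0.99 ± 0.26 in Dp16, which did not pass (edgeR adjusted p = 0.119). Without Dp16 replicate 1 the Dp16 value was 1.15 and was called (edgeR adjusted p = 0.0265). In the other 16 of 17 fits with 1 library left out it was not called (edgeR adjusted p up to 0.285). Nor was it called in 18 of 20 other settings. Its gene, at 23620629 to 23622558 on the minus strand of chromosome 13, overlaps the annotated span of H2bc6 by 496 bases, and 80.5% of the 150-base windows of its transcript are found in no other gene.

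H1f2, which codes for H1.2, lay between 24.4 and 30.3 CPM in WT (median 25.7), between 25.7 and 43.5 CPM in Dp16 (median 36.2), and at 35.6, 37.9, 36.4, 43.2 and 41.5 CPM in Dp16_2xIFNRs. The Dp16_2xIFNRs and WT groups did not overlap, and again Dp16 replicate 1 was the library of its group that lay within the WT range. The log2 fold change was 0.55 ± 0.10 in Dp16_2xIFNRs (edgeR adjusted p = 0.00745) and 0.40 ± 0.10 in Dp16 (edgeR adjusted p = 0.0831). The Dp16 difference was called without Dp16 replicate 1 (0.48, edgeR adjusted p = 0.00669). A block on replicate number also gave a call (0.40, edgeR adjusted p = 0.0266). In the other 16 of 17 fits with 1 library left out the Dp16 difference was not called (edgeR adjusted p up to 0.217). Nor was it called in 16 of 20 other settings. The Dp16_2xIFNRs call was lost with the meninges marker level as a covariate (0.59, edgeR adjusted p = 0.0757) and without the 3 libraries lowest in choroid plexus (0.48, edgeR adjusted p = 0.0573). H1f2 shares no 150-base window with another gene, measured on annotated transcripts.

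H1f0, the linker histone of differentiated cells, lay between 119.6 and 134 CPM in WT (median 130.0), between 103 and 142 CPM in Dp16 (median 124), and at 113, 103, 107, 119 and 138 CPM in Dp16_2xIFNRs. Its log2 fold changes were -0.05 ± 0.08 in Dp16 (edgeR adjusted p = 0.884) and -0.13 ± 0.08 in Dp16_2xIFNRs (edgeR adjusted p = 0.406). H1f10 had -0.11 ± 0.08 (edgeR adjusted p = 0.698) and -0.25 ± 0.09 (edgeR adjusted p = 0.162). Neither was called. H1f10 in Dp16_2xIFNRs was called lower without WT replicate 4, the library high in thalamus markers (-0.30, edgeR adjusted p = 0.0490), and with the thalamus marker level as a covariate (-0.30, edgeR adjusted p = 0.0474). The remaining tested linker gene, H1f3, was scarce (0.312 CPM on average), with 0.48 ± 0.41 and 1.29 ± 0.40 and no call.

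The balance between clustered and replacement linker RNA was also read within each library, which removes the scaling of libraries. These ratios were chosen after the values above were seen. The log2 ratio of H1f2 to H1f0 was -2.26 ± 0.13 (SD, n = 6) in WT, -1.81 ± 0.20 (n = 6) in Dp16 and -1.57 ± 0.13 (n = 5) in Dp16_2xIFNRs. The mean was 0.45 higher in Dp16 and 0.69 higher in Dp16_2xIFNRs than in WT. The ratio of H1f4 to H1f0 was -5.94 ± 0.42 in WT, -4.91 ± 0.49 in Dp16 and -4.43 ± 0.35 in Dp16_2xIFNRs. The step between the duplicated genotypes was 0.24 for H1f2 and 0.48 for H1f4. Leaving out 1 library at a time moved the first between 0.16 (without Dp16 replicate 1) and 0.28, and the second between 0.29 (without Dp16 replicate 1) and 0.61 (without Dp16_2xIFNRs replicate 3). Since the genes were picked for how they moved in these mice, the ratios are a description with no test.

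**Figure D3:**
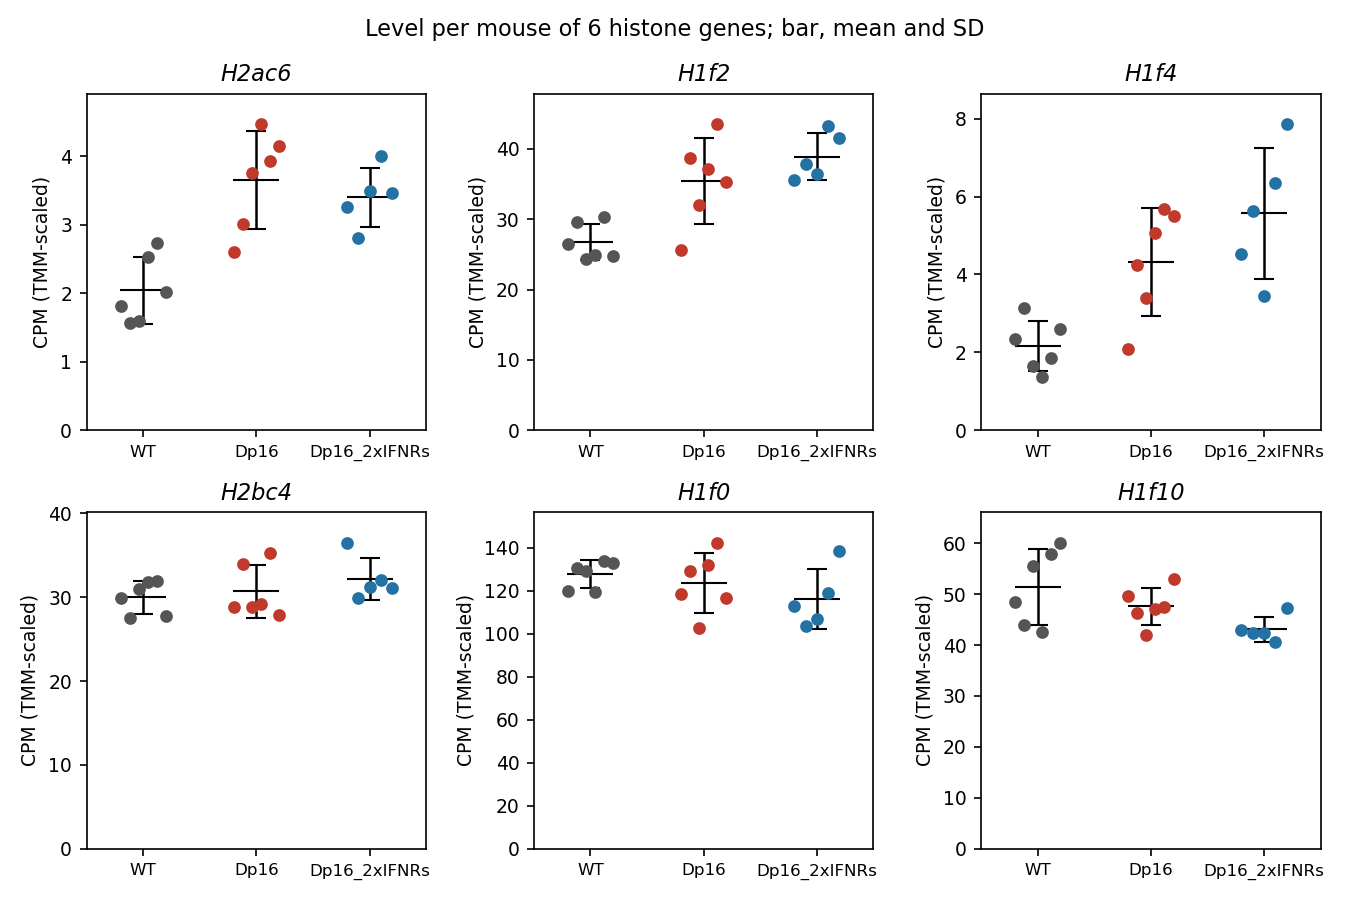
TMM-scaled CPM (y axis, from 0) of 6 histone genes in each mouse by genotype; points are mice, and the bar gives mean and SD. H2ac6, H1f2 and H1f4 have 5 of 6 Dp16 mice and all 5 Dp16_2xIFNRs mice above the highest WT mouse, and H2bc4, H1f0 and H1f10 overlap between genotypes.

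H2A. H2ac6, a clustered H2A gene, was the only member that edgeR called in both comparisons with WT (DESeq2 called 3 in both: H2ac6, H1f2 and H1f4). It stood between 1.57 and 2.73 CPM in WT (median 1.92), between 2.60 and 4.47 CPM in Dp16 (median 3.85), and at 3.27, 2.80, 3.49, 4.00 and 3.46 CPM in Dp16_2xIFNRs, from 48 to 144 counts per library. All 5 Dp16_2xIFNRs libraries and 5 of 6 Dp16 libraries were above the highest WT library. The log2 fold change was 0.84 ± 0.12 in Dp16 (edgeR adjusted p = 0.000693) and 0.79 ± 0.13 in Dp16_2xIFNRs (edgeR adjusted p = 0.00251). It was called in both comparisons without each of the 17 libraries in turn and under each of 20 other settings. Unique 150-base windows made up 94.4% of its transcript.

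In each genotype the males stood above the females in H2ac6, a split looked at after its values were seen. In females, WT mice stood at 1.82, 1.57 and 1.60 CPM and Dp16 mice at 2.60, 3.01 and 3.76 CPM. In males, WT mice stood at 2.53, 2.73 and 2.01 CPM and Dp16 mice at 4.47, 3.94 and 4.16 CPM. The Dp16_2xIFNRs females were at 3.27, 2.80 and 3.46 CPM and the males at 3.49 and 4.00 CPM. Within each sex the 3 WT and 3 Dp16 values did not overlap. With so few mice, and with the share of all tested genes that do so not counted, this is a description only. Over both sexes the WT and Dp16 values overlapped, through Dp16 replicate 1, a female at 2.60 CPM. Over all genotypes the male minus female difference was 0.41 ± 0.10 on the log2 scale, which was not called (edgeR adjusted p = 0.714, unadjusted p = 0.000903). The Dp16 effect in males minus that in females was -0.12 (edgeR adjusted p = 1.00).

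The gene next to H2ac6 was not called. H2bc4, an H2B gene, starts 251 bases from the start of H2ac6 and is read in the other direction (H2ac6 at 23681467 to 23683948, H2bc4 at 23684199 to 23692908 on chromosome 13). H2bc4 lay between 27.5 and 32.0 CPM in WT, between 27.9 and 35.3 CPM in Dp16 and between 29.9 and 36.5 CPM in Dp16_2xIFNRs, groups that overlapped. Its log2 fold changes were 0.03 ± 0.07 (edgeR adjusted p = 0.915) and 0.10 ± 0.07 (edgeR adjusted p = 0.504). Read within a library, the log2 ratio of H2ac6 to H2bc4 was -3.91 ± 0.29 (SD, n = 6) in WT, -3.09 ± 0.35 (n = 6) in Dp16 and -3.25 ± 0.20 (n = 5) in Dp16_2xIFNRs. This pair was chosen after its values were seen, so the ratio is given with no test.

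The other tested H2A genes were lower in level. H2ac7, at a mean of 0.507 CPM, had estimates, on the log2 scale, of 0.78 ± 0.41 in Dp16 (edgeR adjusted p = 0.568) and 1.62 ± 0.41 in Dp16_2xIFNRs (edgeR adjusted p = 0.0656). DESeq2 called it in the latter. H2ac19 had 0.16 ± 0.19 and 0.32 ± 0.19, and all its windows are shared with another gene, so its counts depend on how reads of the H2ac18 and H2ac19 copies were handled. Summed over the class, WT mice had 3.98 ± 0.65 CPM of H2A RNA (SD, n = 6), Dp16 mice 5.95 ± 1.05 CPM (n = 6) and Dp16_2xIFNRs mice 6.27 ± 0.93 CPM (n = 5). The Dp16 to WT ratio of that sum was 1.49 in CPM and 1.25 in RPKM, which weigh the long H2ac6 transcript less.

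H2B, H3 and H4. The H2B genes overlapped between genotypes. In WT, H2bc21 had 11.3 ± 1.22 CPM (SD, n = 6), against 12.9 ± 2.25 in Dp16 and 12.7 ± 2.14 in Dp16_2xIFNRs, and H2bc6 had 4.83 ± 0.74, 4.75 ± 0.69 and 5.48 ± 0.22 CPM. None of the 4 tested H2B genes was called in edgeR in a comparison with WT. At an unadjusted p under 0.05, 0 were higher in Dp16 and 1 in Dp16_2xIFNRs, beside 5.61% and 8.44% of all tested genes. The H2B sum was 47.4 ± 1.93 CPM in WT, 49.9 ± 4.29 in Dp16 and 52.2 ± 2.44 in Dp16_2xIFNRs. H3c15, an H3 gene, had log2 fold changes of -0.19 ± 0.18 in Dp16 and 0.13 ± 0.18 in Dp16_2xIFNRs, and 40.6% of its windows are unique. The H3 sum was 3.29 ± 0.51, 3.27 ± 0.64 and 4.17 ± 0.95 CPM.

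All 6 tested H4 genes had log2 fold changes above 0 in both comparisons, beside 48.1% and 51.1% of all tested genes. They ran from 0.15 to 0.80 in Dp16 and from 0.37 to 1.22 in Dp16_2xIFNRs, and none was called in edgeR. At an unadjusted p under 0.05, 2 and 5 of 6 were higher, beside 5.61% and 8.44% of all tested genes. The upper ends are H4c3, a scarce gene with 3 to 13 counts per library in WT and 11 to 23 in Dp16_2xIFNRs. The filter keeps such genes through the group where they are high, so the direction over the 6 supports no statement on the class. H4c8 lay between 1.02 and 1.68 CPM in WT (median 1.29), between 0.979 and 3.44 CPM in Dp16 (median 2.00), and at 1.71, 1.86, 2.25, 2.35 and 1.83 CPM in Dp16_2xIFNRs. Its Dp16_2xIFNRs and WT values did not overlap (log2 fold change 0.63 ± 0.22, edgeR adjusted p = 0.169), and in Dp16 it had 0.63 ± 0.21 (edgeR adjusted p = 0.321). H4c12 had 0.55 ± 0.27 and 0.82 ± 0.29, and H4c14 had 0.29 ± 0.22 and 0.63 ± 0.23. Summed H4 RNA was 6.21 ± 0.84 CPM in WT, 8.35 ± 2.27 in Dp16 and 9.47 ± 1.05 in Dp16_2xIFNRs. H4 genes are known to code for one shared protein sequence.

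Over the whole family, groups without overlap were found in 0 of 20 members in Dp16 against WT (0.99% of all tested genes) and in 4 of 20 in Dp16_2xIFNRs against WT (2.17%), H2ac6, H1f2, H1f4 and H4c8. Summed over all 68 members, histone RNA was alike in the groups: 269 ± 13.7 CPM in WT (SD, n = 6), 279 ± 26.1 in Dp16 (n = 6) and 276 ± 21.4 in Dp16_2xIFNRs (n = 5). The H1 sum was 208 ± 13.5, 211 ± 20.7 and 204 ± 19.4 CPM. H1f0 and H1f10 gave 62.1% of all member counts. Without H1f0 and H1f10, WT mice had 90.1 ± 4.55 CPM of summed histone RNA (SD, n = 6), Dp16 mice 108 ± 14.5 CPM (n = 6) and Dp16_2xIFNRs mice 117 ± 7.48 CPM (n = 5). Single mice stood apart within Dp16: replicate 1 was the lowest library of its group for 11 of these 18 members and replicate 5 the highest for 10. The members on chromosome 13 had a median log2 fold change of 0.44 in Dp16 and 0.77 in Dp16_2xIFNRs (14 genes), and those on chromosome 3 had 0.18 and 0.25 (4 genes). The 15 members with a stem-loop had medians of 0.39 and 0.63, and the 5 without it 0.03 and 0.10. These splits were made with values in view and carry no test. Only genes that pass the count filter enter these medians, and 6 of them lie under 1 CPM. All 6 are on chromosome 13 and have a stem-loop, and their medians were 0.43 and 1.04. Both splits are therefore mixed with level, and the part of level in them was not tested. The 14 members of at least 1 CPM had medians of 0.24 and 0.39.

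**Figure D4:**
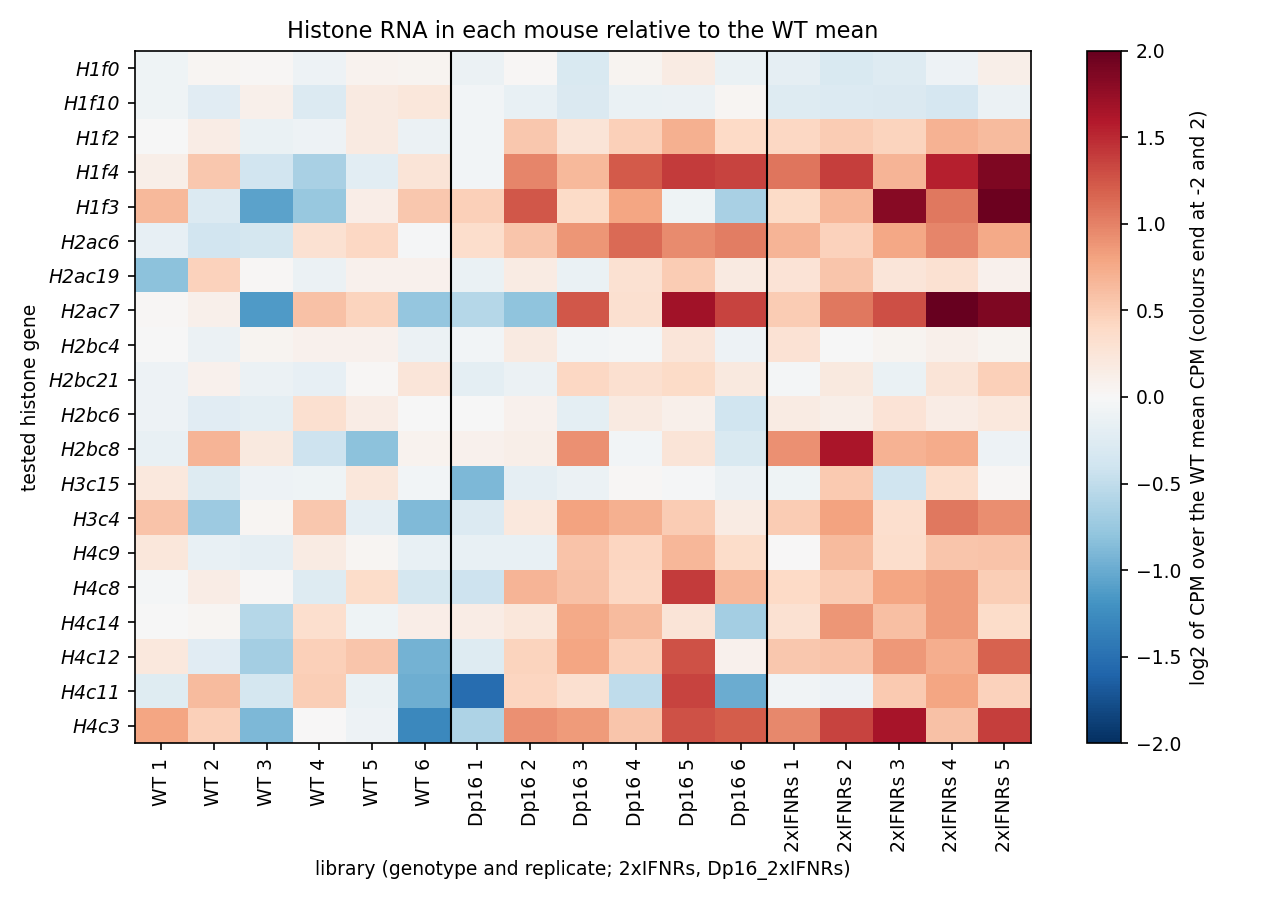
Log2 of CPM over the WT mean CPM (colour, ending at -2 and 2) for the 20 tested histone genes (rows, by class) in each of the 17 mice (columns, by genotype). The H1f0, H1f10 and H2bc4 rows stay pale, H1f4 and H2ac6 are red in most duplicated mice, and the first Dp16 mouse is the lowest of its group in 11 of the 18 rows other than H1f0 and H1f10.

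Whether receptor dosage matters to these genes within the duplication is addressed by Dp16_2xIFNRs against Dp16. No member was called in edgeR (0.0158% of all tested genes were), and DESeq2 and limma-voom called 0 as well. At an unadjusted p under 0.05, 3 members were higher in Dp16_2xIFNRs, the scarce H2bc8, H1f3 and H2ac7, beside 6.99% of all tested genes. For H2ac6 the log2 difference was -0.05 ± 0.13 (edgeR adjusted p = 0.903), for H1f2 0.15 ± 0.10 (edgeR adjusted p = 0.586) and for H1f4 0.39 ± 0.26 (edgeR adjusted p = 0.586). A p above the threshold does not show equal levels. Between males and females edgeR, DESeq2 and limma-voom called 0 members (edgeR called 0.0685% of all tested genes), and 2, H2ac6 and H2ac7, were higher in males at an unadjusted p under 0.05 (1.6% of all tested genes). None of the 20 members had a genotype effect that differed between sexes at an adjusted p under 0.05 (edgeR interaction, 0 of all tested genes). For H1f4 the effect in males minus that in females was 1.03 in Dp16 against WT (unadjusted p = 0.0348, edgeR adjusted p = 1.00) and -1.03 in Dp16_2xIFNRs against Dp16 (unadjusted p = 0.0387, edgeR adjusted p = 0.947).

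The genes that make, end, carry and partner these histones were examined next, from lists of named genes. Their counts at an unadjusted p under 0.05 stand beside those of all tested genes. Of these, 5.61% were higher and 3.97% lower in Dp16, and 8.44% and 8.6% in Dp16_2xIFNRs. Of 21 tested genes for the 3′ processing and decay of histone messenger RNA, edgeR, DESeq2 and limma-voom called 0 in both comparisons with WT (1 higher and 1 lower at an unadjusted p under 0.05 in Dp16, 2 higher and 0 lower in Dp16_2xIFNRs), and the median log2 fold changes were 0.0005 and -0.003. In WT, Slbp was at 20.2 ± 0.98 CPM (SD, n = 6), against 19.96 ± 1.63 in Dp16 and 18.8 ± 1.68 in Dp16_2xIFNRs. Npat, the coactivator of histone gene transcription, had log2 fold changes of 0.07 ± 0.06 and 0.14 ± 0.07. Lsm11, a part of the U7 particle that cuts histone messages, had 0.21 ± 0.07 (edgeR adjusted p = 0.334) and 0.13 ± 0.08. Mblac1, a nuclease of histone message ends, had -0.25 ± 0.16 and -0.15 ± 0.17, and Lsm10, another U7 subunit, -0.19 ± 0.10 and -0.22 ± 0.11.

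Histone chaperones carry histones to DNA. Of 24 tested, the same 3 tools called 0 (1 higher and 2 lower at an unadjusted p under 0.05 in Dp16, 0 and 5 in Dp16_2xIFNRs). Hira, a chaperone of replication-independent H3, had -0.18 ± 0.07 and -0.23 ± 0.07, and Nasp, a chaperone of H3 and H4 and of linker histones, -0.15 ± 0.05 and -0.04 ± 0.05. Chaf1a, the large subunit of the assembly factor CAF-1, had -0.15 ± 0.12 and -0.39 ± 0.13 (edgeR adjusted p = 0.147). The polyadenylated histone genes outside the naming pattern (replacement histones such as H3f3a and Cenpa) had medians of -0.08 and -0.16, with 2 and 0 of 10 above 0 and 0 called by any of the 3 tools (0 at an unadjusted p under 0.05 in Dp16, 4 lower in Dp16_2xIFNRs). In WT, H3f3a, a gene of a replacement H3, was at 165 ± 14.9 CPM, against 152 ± 13.4 in Dp16 and 140.0 ± 12.2 in Dp16_2xIFNRs (edgeR adjusted p = 0.605 and 0.125).

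No gene of the S phase and mitosis list was called. Of 38 tested, the 3 tools called 0, and the medians were -0.04 and -0.01. At an unadjusted p under 0.05, 1 was higher and 7 lower in Dp16 (5.61% and 3.97% of all tested genes). In Dp16_2xIFNRs, 0 were higher and 6 lower (8.44% and 8.6% of all tested genes). Rrm2, a subunit of the enzyme that makes deoxynucleotides in S phase, had -0.40 ± 0.14 (edgeR adjusted p = 0.356) and -0.58 ± 0.15 (edgeR adjusted p = 0.0774). Bub1b, a mitotic checkpoint kinase, had -0.44 ± 0.22 and -0.48 ± 0.23, and Cdk2, a kinase of S phase entry, -0.41 ± 0.18 and -0.01 ± 0.19. The one tested RNA of a list without poly(A) tails, Rn7sk, had -0.02 ± 0.23 and 0.18 ± 0.24, neither larger than its SE.

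**Figure D5:**
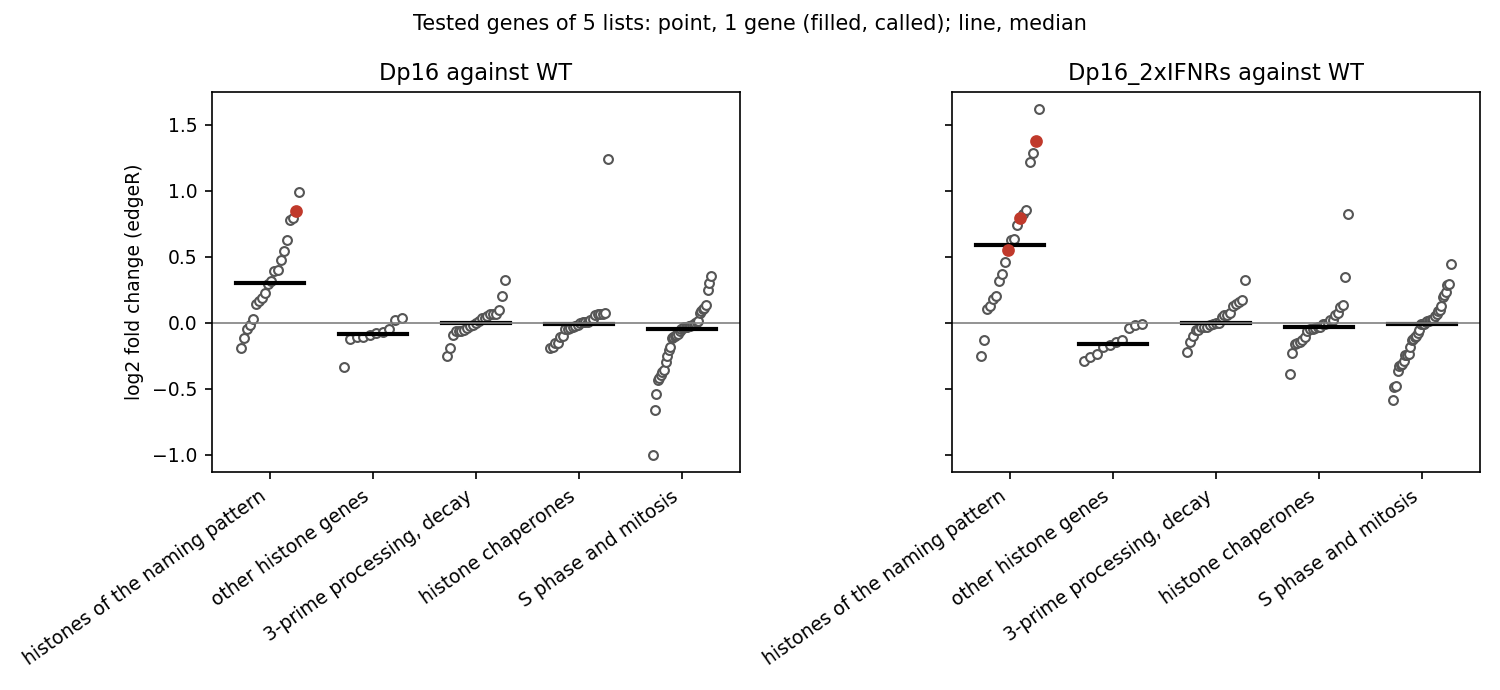
Log2 fold changes in edgeR (y axis) of the tested genes of 5 lists in Dp16 (left) and Dp16_2xIFNRs (right) against WT; each point is 1 gene, filled when the adjusted p was under 0.05, and lines are medians. The histone genes have medians of 0.30 and 0.59 (0.24 and 0.39 at 1 CPM or more), the replacement histones -0.08 and -0.16, the other 3 lists between -0.04 and 0.0005, and the chaperone point far above the rest in Dp16 is Chaf1b.

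Chromatin genes of the duplicated segment itself served as a check of the genotypes. Hmgn1, a nucleosome-binding protein, had log2 fold changes of 0.52 ± 0.06 and 0.55 ± 0.06, Brwd1, a reader of acetylated histones, 0.57 ± 0.07 and 0.73 ± 0.07, and Morc3, a chromatin ATPase, 0.61 ± 0.06 and 0.71 ± 0.06, all called in both comparisons. Setd4, a lysine methyltransferase, was called in Dp16_2xIFNRs (0.90 ± 0.19, edgeR adjusted p = 0.0200; 0.35 ± 0.18 in Dp16, edgeR adjusted p = 0.554). Chaf1b, a smaller CAF-1 subunit, had 1.24 ± 0.43 and 0.82 ± 0.46 at 0.337 CPM and was not called (edgeR adjusted p = 0.329 and 0.370).

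Markers of tissue other than hippocampal cells moved in part with the genotypes. All 4 meninges markers had log2 fold changes above 0, with medians of 0.27 and 0.60. Their sum ran from 53.5 to 92.1 CPM in WT, from 76.0 to 108 CPM in Dp16 and from 85.5 to 126 CPM in Dp16_2xIFNRs. None was called in edgeR, and DESeq2 called Col1a1 in Dp16_2xIFNRs. With their level as a covariate the member median in Dp16_2xIFNRs was 0.35 in place of 0.59, and H2ac6 and H1f4 were still called. Of 9 tested blood and leukocyte markers, 9 and 7 were above 0, with medians of 0.35 and 0.14 and none called. All 3 thalamus markers were below 0, with WT replicate 4 high. Markers of neural progenitors and immature neurons (5 genes) summed to 71.7 to 96.4 CPM in WT, 61.6 to 69.2 CPM in Dp16 and 59.3 to 68.6 CPM in Dp16_2xIFNRs. These sums did not overlap with WT, but how often sums of other genes separate so was not counted. The log2 fold changes of the 5 genes had medians of -0.10 and -0.19, with 1 and 0 of 5 above 0, and none was called. At an unadjusted p under 0.05, 1 of 5 was lower in each comparison, beside 3.97% and 8.6% of all tested genes. The medians of oligodendrocyte precursors were 0.001 and 0.003. Beyond the covariate fits given here, the part of these tissues in the histone values was not tested.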

How the data were processed

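Polyadenylated RNA of 17 hippocampi was sequenced with a strand-specific kit as paired reads of 150 bases, per the labels' protocols. The submitters' processing notes name HTSeq 0.6.1, HISAT2 2.1.0, SAMtools 1.5, FastQC 0.11.5 and bcl2fastq, and the build GRCm38. Raw counts of every gene were deposited by the authors, as were RPKM of the same libraries, with names of GENCODE release 24. How reads that match several genes were treated, and which strand setting was used, are not given in the sources used here, so near-identical histone copies and overlapping genes are less certain. The labels name 1 mouse per library, and each was taken as a replicate. No column of other samples was present (0).

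Counts were filtered with filterByExpr (minimum count 10), scaled by TMM and fitted with edgeR 4.0.16 in R 4.3.3 by quasi-likelihood on genotype and sex over all 17 libraries (13 residual degrees of freedom). Calls needed a Benjamini-Hochberg adjusted p under 0.05 over 18983 genes. The SE is the absolute log2 fold change over the root of F. The SE and the SD include variation between mice.

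The members and lists were chosen with earlier results of these data known. Named members were H2ac6, H1f4, H2bc4, called members, the 8 most abundant, and the 5 highest and 5 lowest fold changes per genotype comparison at 1 CPM or more. From each list, called genes and up to 3 of the largest fold changes at 1 CPM or more in Dp16 were named, with Slbp, Npat and Chaf1b. H1f3, H2ac7, H2ac19, H2bc8, H4c3 and H4c11 were added after their values were seen, as were the ratios and the split of H2ac6 by sex. Positions and transcripts came from GENCODE release 21 and promoters from RefSeq. Alternatives were DESeq2 1.42.0, limma 3.58.1 (voom, and trend on RPKM with 0.1 or 1 added), other filters, covariates, a replicate block, and leaving out each library.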

Additional observations from a re-analysis of the deposited data

Results flagged for a closer look

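Groups of 5 or 6 mice were examined for a library far from the others in 36 sets of member values, and 1 was found. H3c15, an H3 gene, was at 1.254 CPM in Dp16 replicate 1, and the gap to the next library was 0.72 of the range of the group. Chance gives about 1 such group in 20.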

How the results depend on the processing

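H2ac6 was called against WT in both duplicated genotypes without each of the 17 libraries (edgeR adjusted p 0.000602 to 0.00320 in Dp16 and 0.00202 to 0.0109 in Dp16_2xIFNRs) and under 20 other settings (up to 0.0262 and 0.0390). With 1 added to RPKM, its log2 fold change was 0.43 and 0.41. The count of members called in Dp16 against WT, 1, became 3 in DESeq2 and with no filter, 2 with the replicate block (H1f2 added) and 2 at a threshold of 0.1. It ranged from 1 to 3 over left-out libraries, with 3 without Dp16 replicate 1. H1f2 and H1f4 were the genes added in DESeq2, and the cause was not tested. In Dp16_2xIFNRs the count of 3 ranged from 3 to 4 over left-out libraries and from 2 to 4 elsewhere. H1f2 was the gene lost, with the meninges level or without the 3 libraries lowest in choroid plexus, both chosen after seeing the data. The counts of 0 for Dp16_2xIFNRs against Dp16 and for sex stayed at 0 in all settings run. Over all genes, edgeR called 102, 186 and 3 genes in Dp16 against WT, Dp16_2xIFNRs against WT and Dp16_2xIFNRs against Dp16, the replicate block 104, 152 and 4, and DESeq2 214, 632 and 6. Same-numbered mice had a mean correlation of deviations of 0.0772 (16 pairs, 6 over 0.1), other pairs -0.0141 (80 pairs, 20 over 0.1). These values cannot settle whether replicate numbers pair the mice. Across genotypes, 5 pairs of mice have the same middle number in their identifiers, whose meaning the labels do not give, and the mean correlation of these pairs was 0.0126 (-0.223 to 0.301). The 48 untested members had too few counts to be tested, at most 16 in a library, and the cause was not tested.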
